A study of Mus musculus with 9 samples.

Results

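Secreted antagonists and modulators of bone morphogenetic proteins (BMPs) other than Gremlin1 were followed through the forelimb bud of 3 mouse genotypes. The 9 genes were *Nog*, *Chrd*, *Chrdl1*, *Fst*, *Twsg1*, *Bmper*, *Sostdc1*, *Smoc1* and *Smoc2*, chosen by name out of the 32289 features of each matrix of single-cell counts, and each matched exactly 1 feature. *Grem1*, the gene whose enhancers were deleted, was kept beside them as a reference. The question was in which cells each gene is transcribed, and whether any of them rises where *Grem1* falls.

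BMPs are secreted ligands that bind type I and type II receptors and drive SMAD-dependent transcription, with *Id* and *Msx* genes among the usual targets. Their reach is set outside the cell by proteins that bind the ligand and keep it from its receptors, such as Noggin, Chordin and Gremlin1. In the limb bud, Gremlin1 made by the mesenchyme lowers BMP activity and thereby keeps the exchange of signals between polarizing region and apical ectodermal ridge going.

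Pairs of forelimb buds were taken from embryos of the Swiss Albino background at E10.75 (37 to 39 somites), dissociated, and profiled cell by cell in droplets by 3′ tag counting. Wild type (Wt) was sampled in 3 libraries, as was each of the mutants homozygous for EC1CRM8Δ/Δ (E1C8) or for EC1CRM5Δ/Δ (E1C5). Both alleles lack EC1 of the *Grem1* regulatory landscape, together with CRM8 in the former and CRM5 in the latter. By the study's account each allele lacks several limb bud enhancers of *Grem1*, although CRM8 showed no obvious activity of its own in a reporter. Both alleles are constitutive deletions carried by every cell of the embryo, with the coding part of *Grem1* left in place. By the study's account each library came from a single pair of buds, so that the libraries of a genotype are separate embryos, and p-values measure the spread between them.

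The authors deposited counts of unique molecular identifiers (UMIs) per gene and barcode. After filters on cells and removal of doublets, cells were assigned to lineages by listed marker genes, none of which is one of the 9 genes, after each cell had been thinned to 10000 UMIs. Mesenchyme held 34923 cells, between 462 in E1C8 replicate 1 and 6467 in E1C5 replicate 3, with 17411762 and 261181309 UMIs. Of the markers used for gating, limb mesenchyme genes *Prrx1* and *Shox2* were found in 96.2% to 99.4% and 77.1% to 84.2% of these cells per library. Its median depth ran from 17013 UMIs per cell to 49919 UMIs in Wt replicate 3, a library of only 713 mesenchymal cells which stands apart below. Other lineages were muscle (1961 cells), erythroid (2141), endothelium (550), ectoderm (475) and myeloid (168). Libraries with fewer than 20 cells of a group were left out of that group, which took E1C8 replicate 1 out of all groups outside mesenchyme. Pairs of libraries shared between 0 and 21 barcodes. Read from *Xist* and genes of the Y chromosome, Wt was male in all 3 libraries, whereas 2 of 3 libraries of each mutant were female, so that sex and genotype are partly confounded. Low levels of RNA of the other sex were seen in 3 libraries: *Xist* at 22.6 CPM in Wt replicate 1 and at 7.88 CPM in E1C8 replicate 3, and Y-linked genes at 3.04 CPM in E1C8 replicate 1. CPM is the UMIs of a gene per 1000000 UMIs of the group's cells in a library. Since 3′ counting takes 1 tag per molecule whatever its length, CPM does not scale with the length of a transcript. Whether different genes are captured equally well was not tested, so CPM compares levels between genes only roughly.

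The 9 genes differed widely in level and in place. *Twsg1*, for a Chordin-binding cofactor that can promote or hinder BMP signalling, was the most abundant and the most evenly spread. *Smoc1*, for a secreted calcium-binding matricellular protein, peaked in parts of the mesenchyme and was higher in mesenchymal cells with detected *Grem1* than in the rest. *Sostdc1*, for a cystine-knot protein that also acts on WNT signalling, and *Smoc2*, the paralogue of *Smoc1*, were highest in ectoderm. *Fst*, for the activin and BMP trap Follistatin, and *Nog*, for Noggin, were highest in muscle-like cells. In the Wt libraries, mesenchymal means were 40.7 ± 2.36 CPM (SD, n = 3) for *Twsg1*, 17.6 ± 2.84 CPM for *Smoc1*, 8.56 ± 3.72 CPM for *Sostdc1* and 7.12 ± 0.398 CPM for *Chrdl1*, a Chordin-like antagonist. The remaining genes lay at or below 2.45 CPM. *Grem1* had 34.8 ± 8.17 CPM, so that only *Twsg1* lay above it.

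Each lineage was compared with mesenchyme of the same libraries by edgeR's quasi-likelihood test with Benjamini-Hochberg adjustment over all genes tested. Of 36 pairs of a gene and a lineage that passed the filter on low counts, 28 differed, 5 higher and 23 lower outside mesenchyme. Among all genes tested the same comparison called 65.7%, 29.3% higher and 36.4% lower, so a difference between lineages is the usual case. The 5 higher pairs were *Sostdc1*, *Smoc2* and *Twsg1* in ectoderm and *Fst* and *Nog* in muscle-like cells.

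**Figure D1:**
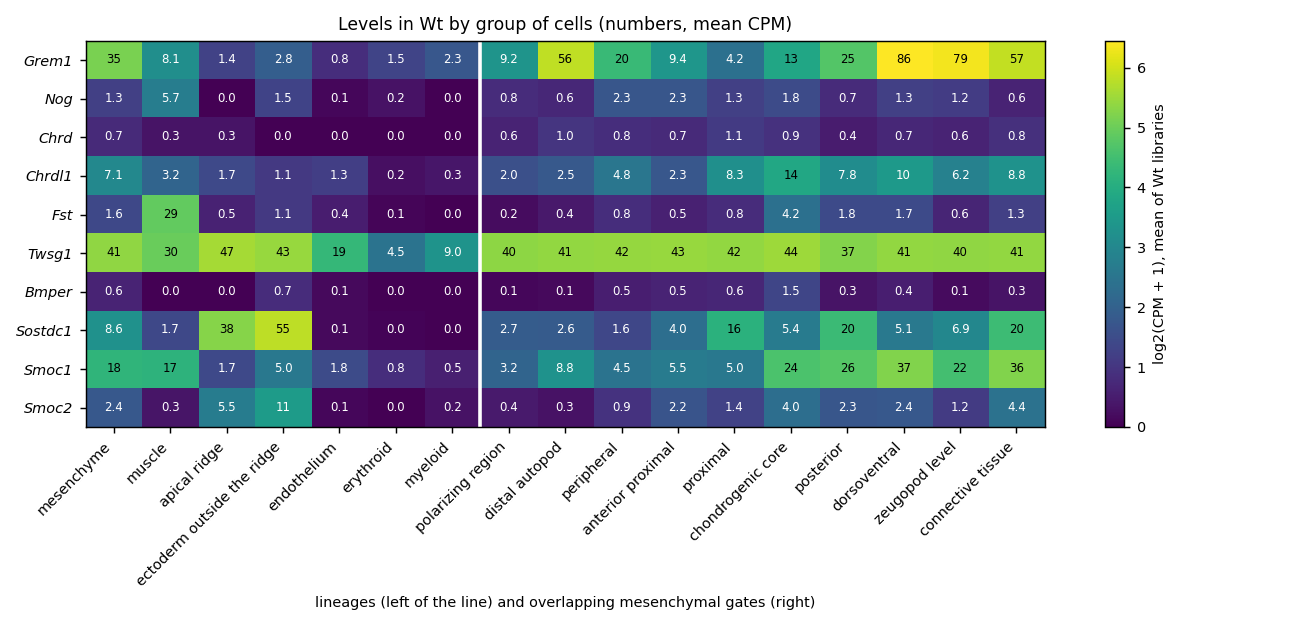
Mean level of each gene in the Wt libraries by group of cells, with lineages left of the line and overlapping mesenchymal gates right of it. Colour gives log2(CPM + 1) and the numbers give the mean CPM; ectoderm is shown split into apical ridge and the rest, and *Twsg1* is the only gene with a mean of at least 30 CPM in mesenchyme, ectoderm and muscle alike.

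*Sostdc1* had 56.3 and 36.0 CPM in the ectoderm of Wt replicates 1 and 2, the Wt libraries with enough ectodermal cells. Its level was 55.4 and 41.4 CPM in E1C8 replicates 2 and 3 and 33.8 and 23.5 CPM in E1C5 replicates 1 and 3. Ectoderm thus exceeded mesenchyme by 2.59 on the log2 scale (SE 0.13, adjusted p = 2.42e-12), in the ridge as well as outside it, where the Wt means of 37.6 ± 16.9 and 55.1 ± 7.85 CPM (SD, n = 2) overlap in their spread. *Smoc2* was higher in ectoderm by 2.35 (SE 0.23, adjusted p = 3.93e-08), with 7.26 and 8.63 CPM in the Wt libraries. *Twsg1* exceeded its mesenchymal level by 0.41 (SE 0.08, adjusted p = 0.000311), and was lower than there in endothelium (18.6 CPM in Wt), myeloid (9.01 CPM) and erythroid cells (4.51 CPM).

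*Fst* stood out in muscle-like cells, where it was higher than in mesenchyme by 4.08 on the log2 scale (SE 0.18, adjusted p = 1.15e-11). Those cells carried *Pax3* in 78.4% to 98.9% and *Lbx1* in 74.9% to 87.6% of cells per library, markers used to gate them, while *Myod1* and *Myog*, for myogenic factors of commitment and differentiation, were found in at most 11.8% and 3.92%, and *Pax7*, for a factor of muscle progenitors, in at most 4.08%. *Nog* was higher there by 1.43 (SE 0.22, adjusted p = 4.36e-05) and *Sostdc1* lower by 2.74 on the log2 scale. *Smoc1* was not called different from mesenchyme in these cells (-0.14, SE 0.09, adjusted p = 0.211). In Wt libraries the mean of *Fst* in muscle-like cells was 29.0 ± 16.3 CPM (SD, n = 3), and the next group in the order, a chondrogenic part of the mesenchyme, had 4.22 ± 3.02 CPM. *Nog* had 5.66 ± 2.61 CPM in muscle-like cells and 2.29 ± 0.645 CPM in the next group, a difference just beyond the spread of the libraries.

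Droplet libraries carry free RNA. Erythroid cells were taken as a gauge of it, though whether they transcribe these genes themselves was not tested. With every cell thinned to 10000 UMIs, the share of erythroid cells with a UMI was 2.58% to 7.65% for *Twsg1*, at most 1.69% for *Smoc1* and at most 1.02% for *Chrdl1*. The corresponding shares of mesenchymal cells were 24.2% to 33.8%, 6.28% to 15.0% and 4.28% to 7.71%. *Nog*, *Fst* and *Sostdc1* were found in at most 0.940% of erythroid cells, and *Chrd*, *Bmper* and *Smoc2* in none. Median depths of erythroid and mesenchymal cells were alike, at 31689 and 31095 UMIs. *Chrd*, for Chordin, and *Bmper*, for a Chordin-related regulator that can oppose or aid BMPs, were found in 0.256% to 1.26% and in 0.319% to 0.649% of mesenchymal cells, and *Fst* in at least 0.224%, with a median of 0.636% over the libraries.

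Within mesenchyme, 10 overlapping gates were set by UMIs of 1 to 3 positional marker genes, such as *Hoxa13* and *Hoxd13* for the distal autopod or *Osr2* and *Nrp2* for a dorsoventral domain. They held between 2.02% and 24.3% of mesenchymal cells, and between 13.5% and 60.5% of the cells of a gate lay exactly at its threshold. Each gate was compared with the remaining mesenchyme of the same libraries. Of 76 pairs of a gene and a gate, 43 differed, 14 higher and 29 lower in the gate, against 46.0% of all genes tested, 22.1% higher and 23.9% lower.

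The 9 genes occupied different parts of the mesenchyme. *Smoc1* was higher by 1.42 on the log2 scale in the connective tissue gate (*Hgf*, *Ebf2*, *Meox2*; SE 0.05, adjusted p = 3.64e-15) and by 1.01 in the dorsoventral gate (SE 0.14, adjusted p = 2.41e-05), and lower by 1.87 in the peripheral gate (*Msx1*, *Asb4*, *Lhx2*). *Sostdc1* was higher by 1.50 in the connective tissue gate and by 1.50 in the posterior gate (*Osr1*), and by 1.25 in the proximal gate (*Gsc*, *Creb5*). *Bmper*, *Fst* and *Smoc2* were higher in the chondrogenic core gate (*Sox9*, *Col2a1*), by 2.56, 1.84 and 1.42. *Nog* was higher in the peripheral gate by 1.33 (SE 0.13, adjusted p = 2.51e-07), the only gate in which it was called higher. *Twsg1* moved by no more than 0.11 in either direction in any gate, and the Wt means of *Chrd* stayed between 0.398 and 1.12 CPM over the gates. In the order of Wt levels, the dorsoventral and the connective tissue gate did not differ in *Smoc1* beyond their spread (36.8 ± 4.94 and 36.4 ± 8.84 CPM, SD, n = 3), nor did the connective tissue and the posterior gate in *Sostdc1* (20.4 ± 12.3 and 20.1 ± 8.98 CPM). For *Chrdl1* the chondrogenic core gate (13.7 ± 0.697 CPM) lay above the dorsoventral gate (10.1 ± 0.955 CPM) by more than their spread.

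Mesenchymal cells with at least 1 UMI of *Grem1* after thinning to 10000 UMIs were set against all other mesenchymal cells of the same libraries, a comparison chosen after seeing the data. *Smoc1* was higher in cells with *Grem1* in 9 of 9 libraries, with 18.3 to 41.9 CPM against 6.78 to 15.3 CPM and a log2 difference of 1.14 (SE 0.06, adjusted p = 4.37e-12, edgeR's quasi-likelihood test with Benjamini-Hochberg adjustment). *Sostdc1* was lower there by 0.49 on the log2 scale (SE 0.07), and *Twsg1* was at 0.01. Of all genes tested, 45.9% were called in this comparison. By gate, *Smoc1* and *Grem1* did not always go together. In Wt the distal autopod gate had 55.6 CPM of *Grem1* and 8.77 CPM of *Smoc1*. The chondrogenic core gate had 13.2 CPM of *Grem1* and 23.7 CPM of *Smoc1*.

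For 7 genes with at least 5 CPM in some group, the genes with the most similar Wt pattern were sought by Pearson correlation of log2(CPM + 1) over 16 groups of cells among 12039 genes. The groups come from the same libraries and the gates overlap, so the values describe likeness only. *Smoc1* was most like *Osr2* (r = 0.939), a marker of the dorsoventral gate, followed by *Fgf18* and *Smim41*. Cells of that gate were picked in part by *Osr2*, so the gating itself raised *Osr2* in a group where *Smoc1* is high. *Grem1* itself reached 0.824 with *Smoc1* and 0.692 with *Chrdl1*, and no more than 0.577 with the other 5. *Fst* was most like *Pgf* (0.942), *Wnt16* and *Six2*, and *Nog* most like *Tex15* (0.888), *Crym* and *Lingo1*. *Sostdc1* was most like *Ntm* (0.968), *Snap91* and *Clip4*, and *Smoc2* most like *Sgsm2* (0.936), *Clip4* and *Ntn1*. *Chrdl1* was most like *Pde9a* (0.957), *Fam181b* and *Rint1*, and *Twsg1* most like *Cacfd1* (0.994), *Zfp60* and *B9d1*.

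The comparison of genotypes asked whether another antagonist takes a higher level where *Grem1* is reduced. *Grem1* (ENSMUSG00000074934, mm10, chromosome 2, 113746164 to 113758646, minus strand) had 44.0, 28.6 and 31.7 CPM in the mesenchyme of Wt replicates 1 to 3, 11.4, 11.3 and 13.9 CPM in E1C8 and 17.2, 16.2 and 25.0 CPM in E1C5. All 6 mutant libraries lay below all Wt libraries, with a log2 fold change of -1.15 for both mutants together (SE 0.15, adjusted p = 0.00538). It was -1.51 in E1C8 and -0.78 in E1C5 (adjusted p = 0.0516). E1C8 was lower than E1C5 by 0.73 on the log2 scale (adjusted p = 0.0286). That difference lost its call in 5 of 20 alternatives, with values from -0.88 to -0.27. For protein, by immunofluorescence, the study describes the other order, with more GREM1 left in E1C8. The order of RNA also depended on the cells. Among mesenchymal cells with detected *Grem1*, E1C8 had 120, 96.3 and 108 CPM and E1C5 71.6, 76.3 and 92.4 CPM. Such cells made up 6.06% to 8.46% of mesenchyme in E1C8 and 10.6% to 16.2% in E1C5. The rest had 2.85 to 4.28 CPM in E1C8 and 8.04 to 11.4 CPM in E1C5. These cells were picked by *Grem1* itself, and the differences were not tested. Against the fall of *Grem1* RNA, 0 of the 9 genes rose in mesenchyme in either mutant or in both together. Of the 8 autosomal genes, *Twsg1* fell in both mutants together, *Twsg1* and *Smoc1* fell in E1C8 and *Fst* fell in E1C5. *Chrdl1*, on the X chromosome and therefore fitted in a table with X and Y genes kept, fell in both together and in E1C8.

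**Figure D2:**
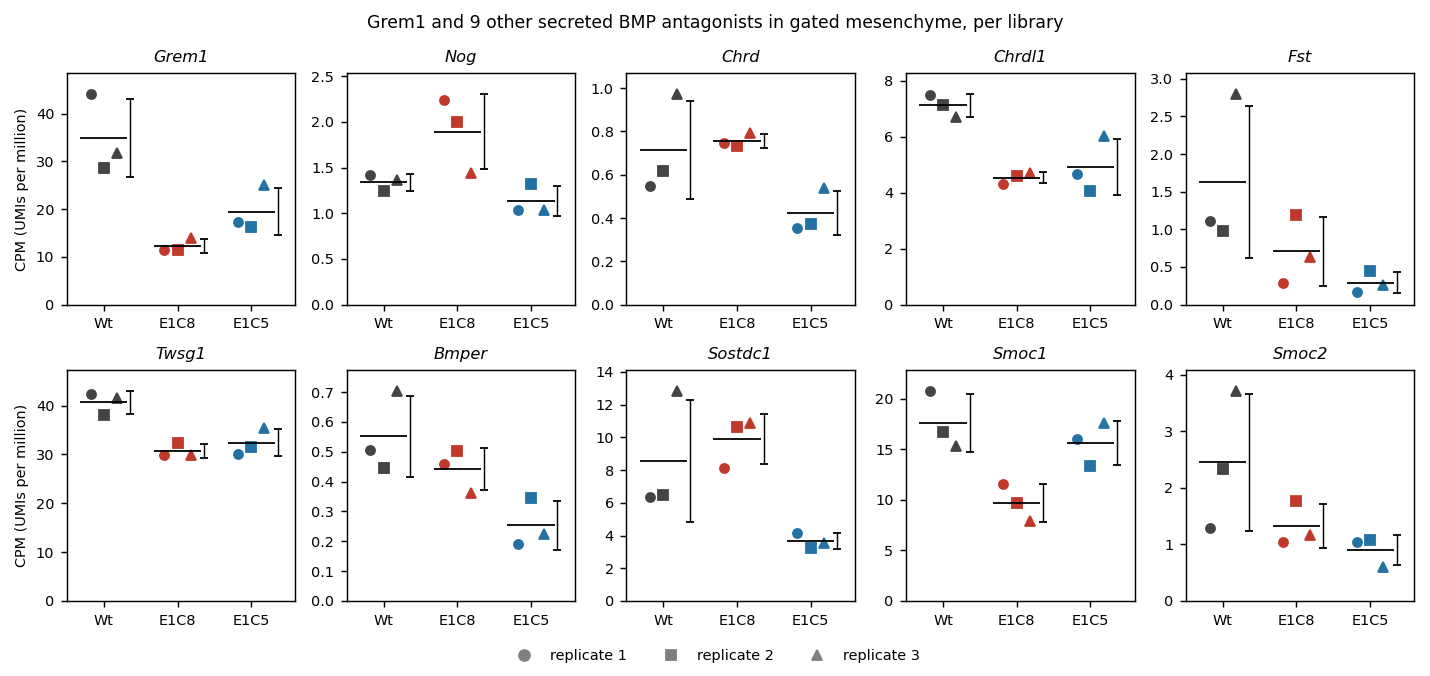
Level in gated mesenchyme of *Grem1* and of each of the 9 genes, in CPM. Each point is a library, the line is the mean and the bar the SD of the 3 libraries of a genotype; *Twsg1* and *Chrdl1* lie lower in all 6 mutant libraries than in any Wt library, while *Nog* in the mutants lies on both sides of Wt.

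In counts, 1 of 8 autosomal genes was called in both mutants together against 2.2% of all 16186 genes tested, 0 rising (0.667% of genes) and 1 falling (1.53%). In E1C8 2 of 8 were called against 9.11% of genes, 0 rising (3.53%) and 2 falling (5.58%). In E1C5 1 of 8 was called against 1.53% of genes, 0 rising (0.383%) and 1 falling (1.15%). At an unadjusted p under 0.05, 5, 3 and 6 of the 8 genes passed in these comparisons, which share the Wt libraries, beside 19.5%, 25.7% and 13.8% of all genes. DESeq2 called 4 genes in both mutants together, 2 in E1C8 and 4 in E1C5, with 0 rising in each. The share of all genes that DESeq2 called is not given here, so its counts have no background. In the table with X and Y genes kept, 2.13% of genes were called. The median log2 fold change of the 8 genes was -0.48 in both mutants together, -0.36 in E1C8 and -0.85 in E1C5, beside medians of -0.01, -0.01 and -0.0027 over all genes.

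Of the ligand-binding antagonists among the 9 genes, *Nog*, *Chrd* and *Fst* were sparse in mesenchyme and *Chrdl1* less so, and none of them rose. *Nog* (ENSMUSG00000048616, chromosome 11, 89300638 to 89302332) had 1.42, 1.24 and 1.36 CPM in Wt, 2.24, 2.00 and 1.44 CPM in E1C8 and 1.04, 1.32 and 1.04 CPM in E1C5. The E1C8 libraries lay above Wt and the E1C5 libraries below or within it. The log2 fold change in E1C8 was 0.44 (95% interval 0.01 to 0.87, adjusted p = 0.181). In the main edgeR fit of all 9 libraries, no other gene came nearer to a rise. Its unadjusted p in E1C8 was 0.0438 by edgeR's quasi-likelihood test across all genes, and with both mutants together it was 0.13 (95% interval -0.24 to 0.49). A rise of both mutants beyond 1.41-fold is outside this interval.

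*Chrd* (ENSMUSG00000006958, chromosome 16, 20733127 to 20742384, overlapping *Thpo* on the other strand) had 0.550, 0.616 and 0.972 CPM in Wt, 0.747, 0.732 and 0.794 CPM in E1C8 and 0.352, 0.374 and 0.540 CPM in E1C5. E1C5 lay below all Wt libraries and E1C8 within their range, with log2 fold changes of -0.63 (adjusted p = 0.279) and 0.14 (adjusted p = 0.777). These values rest on 13 to 160 UMIs per library.

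*Chrdl1* (ENSMUSG00000031283, chromosome X, 143285674 to 143394262) had 7.50, 7.14 and 6.71 CPM in Wt, 4.31, 4.61 and 4.70 CPM in E1C8 and 4.67, 4.06 and 6.03 CPM in E1C5. All 6 mutant libraries lay below all Wt libraries. The log2 fold change was -0.57 for both together (SE 0.11, adjusted p = 0.0311), -0.66 in E1C8 (adjusted p = 0.0163) and -0.48 in E1C5 (adjusted p = 0.117). In the male libraries alone (3 Wt, 1 of each mutant) it was -0.64 (adjusted p = 0.351), and with sex as a covariate -0.63 (adjusted p = 0.228). The call for both mutants ended when any library other than E1C5 replicate 3 was left out, with values between -0.63 and -0.52 and adjusted p up to 0.103.

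*Fst* (ENSMUSG00000021765, chromosome 13, 114452290 to 114458951) had 1.11, 0.982 and 2.79 CPM in Wt, 0.287, 1.20 and 0.635 CPM in E1C8 and 0.169, 0.446 and 0.257 CPM in E1C5. All E1C5 libraries lay below all Wt libraries, while E1C8 overlapped Wt. The fall in E1C5 was 5.42-fold (log2 -2.44, SE 0.51, adjusted p = 0.0415), and both together gave -1.71 (SE 0.41, adjusted p = 0.0544). The deep and small Wt replicate 3 carried the highest level. Without it the value in E1C5 was -1.89 (adjusted p = 0.111), and the call also ended without E1C8 replicate 3 or without any 1 of the E1C5 libraries. Summed over 6 myogenic genes (*Pax3*, *Lbx1*, *Myf5*, *Myod1*, *Myog*, *Pax7*), markers of the cells with the most *Fst*, the mesenchyme held 2.99 to 6.99 CPM in Wt, 5.61 to 11.1 CPM in E1C8 and 4.24 to 8.76 CPM in E1C5, against 665 to 847 CPM in muscle-like cells. 1 of the 6 genes was at 0 in at least 1 library.

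The cofactors of Chordin took opposite ranks in abundance. *Twsg1* (ENSMUSG00000024098, chromosome 17, 65921972 to 65951226) had 42.5, 38.0 and 41.6 CPM in Wt, 29.8, 32.3 and 29.9 CPM in E1C8 and 30.2, 31.5 and 35.5 CPM in E1C5. Its highest mutant library lay below its lowest Wt library. Both mutants together were 1.27-fold lower (log2 -0.35, SE 0.07, adjusted p = 0.0256), E1C8 by 0.43 on the log2 scale (SE 0.08, adjusted p = 0.0102), and E1C5 gave -0.27 (SE 0.08, adjusted p = 0.122). *Twsg1* was the 1 autosomal gene of 8 with all 6 mutant libraries below Wt, which held for 3.46% of all genes, and 0 of 8 had all of them above Wt (2.45% of genes). The size of the fall hardly moved over 20 alternatives, from -0.37 to -0.32, but its adjusted p exceeded 0.05 in 12 of them, including the removal of any library other than E1C5 replicate 3. In the male libraries alone the value was -0.34 (adjusted p = 0.527).

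*Bmper* (ENSMUSG00000031963, chromosome 9, 23223076 to 23485200) had 0.505, 0.446 and 0.705 CPM in Wt, 0.459, 0.501 and 0.363 CPM in E1C8 and 0.190, 0.345 and 0.226 CPM in E1C5. E1C5 lay below all Wt libraries, with -1.07 on the log2 scale (95% interval -1.69 to -0.45, adjusted p = 0.104). E1C8 overlapped Wt (-0.30, adjusted p = 0.553). The libraries held 8 to 116 UMIs of *Bmper*.

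**Figure D3:**
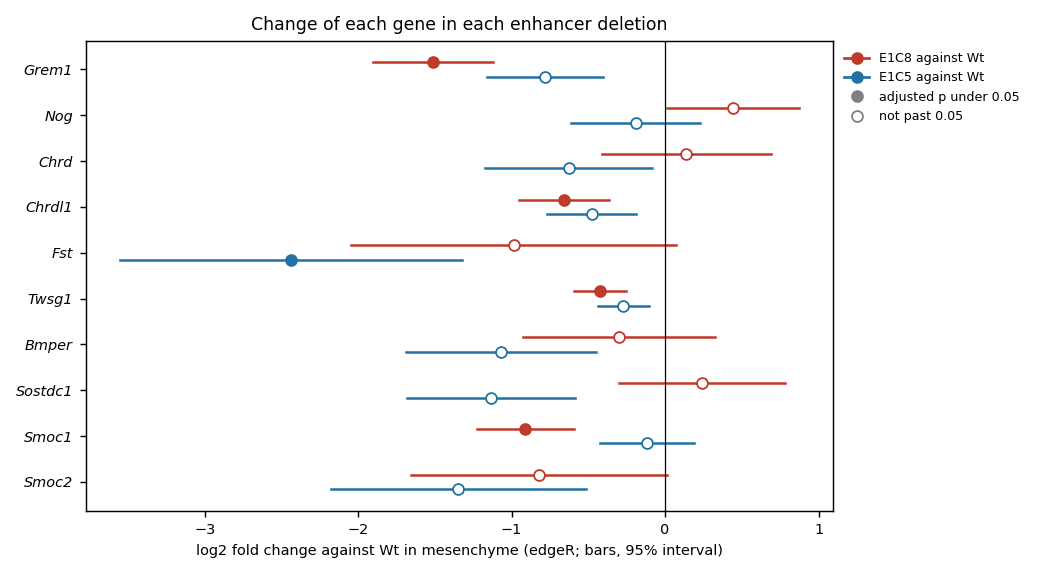
Log2 fold change against Wt in mesenchyme of *Grem1* and the 9 genes, for each deletion, with the 95% interval of edgeR's fit as a bar. *Twsg1*, *Chrdl1* and *Grem1* lie left of 0 with their whole interval in both deletions, and *Sostdc1* lies at 0.24 in E1C8 and at -1.13 in E1C5.

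*Sostdc1* (ENSMUSG00000036169, chromosome 12, 36314139 to 36318452) separated the mutants from each other. It had 6.36, 6.47 and 12.9 CPM in Wt, 8.16, 10.6 and 10.9 CPM in E1C8 and 4.18, 3.22 and 3.57 CPM in E1C5. The E1C5 libraries lay below all others and the E1C8 libraries within the range of Wt. E1C8 was higher than E1C5 by 1.37 on the log2 scale (SE 0.25, adjusted p = 0.0108), 2.59-fold. Against Wt, neither passed the threshold: E1C5 gave -1.13 (adjusted p = 0.0503) and E1C8 0.24 (adjusted p = 0.591). The Wt level rests on replicate 3, with 12.9 CPM. Without that library E1C8 gave 0.61 (adjusted p = 0.0509), and without both smallest libraries, Wt replicate 3 and E1C8 replicate 1, 0.74 (adjusted p = 0.0458), the only setting of those run in which a gene rose against Wt in mesenchyme.

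The share of cells in a domain with much *Sostdc1* differed in range as well. The proximal gate took 10.65% to 12.9% of mesenchymal cells in Wt, 17.6% to 20.3% in E1C8 and 9.03% to 11.1% in E1C5. Within that gate *Sostdc1* had 16.0 to 20.7 CPM in E1C8 and 9.68 to 11.9 CPM in E1C5, and in the connective tissue gate 13.1 to 23.9 CPM and 6.19 to 7.99 CPM, so that the mutants did not overlap inside these gates either. Ectodermal markers (12 genes), of the lineage with the highest *Sostdc1*, summed to 13.1 to 17.2 CPM in Wt mesenchyme, 15.0 to 20.9 CPM in E1C8 and 10.1 to 12.1 CPM in E1C5, against 2804 to 3589 CPM in ectoderm, and all were above 0 in every library. Their part in the difference was not tested.

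*Smoc1* (ENSMUSG00000021136, chromosome 12, 81026808 to 81186414) also differed between the mutants, in the other direction. It had 20.8, 16.7 and 15.3 CPM in Wt, 11.5, 9.67 and 7.86 CPM in E1C8 and 16.0, 13.3 and 17.5 CPM in E1C5. E1C8 lay below all other libraries and E1C5 overlapped Wt. It fell by 0.91 on the log2 scale in E1C8 (SE 0.14, adjusted p = 0.00612), was -0.12 in E1C5 (95% interval -0.42 to 0.19, adjusted p = 0.759), and E1C8 was lower than E1C5 by 0.79 on the log2 scale (SE 0.14, adjusted p = 0.0103). Leaving out E1C8 replicate 2 ended the last of these calls (adjusted p = 0.0509), and among the male libraries the fall in E1C8 was -1.12 (adjusted p = 0.124). In the comparison of the mutants with each other, 2 of 8 genes were called against 9.01% of all genes, with *Sostdc1* higher (4.04% of genes) and *Smoc1* lower in E1C8 (4.97%), and 6 of 8 had an unadjusted p under 0.05, as did 26.6% of all genes.

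*Smoc2* (ENSMUSG00000023886, chromosome 17, 14279506 to 14404790) had 1.29, 2.34 and 3.72 CPM in Wt, 1.03, 1.77 and 1.16 CPM in E1C8 and 1.04, 1.08 and 0.601 CPM in E1C5. All E1C5 libraries and 2 of 3 E1C8 libraries lay below all Wt libraries. The log2 fold change for both mutants was -1.09 (95% interval -1.78 to -0.39, adjusted p = 0.096), and the Wt libraries themselves spread from 1.29 to 3.72 CPM.

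A level can move through the number of cells with a transcript as well as through UMIs per cell. In mesenchymal cells thinned to 10000 UMIs, *Twsg1* was found in 32.9% ± 0.844 (SD, n = 3) of Wt and 26.8% ± 2.12 (SD, n = 6) of mutant cells, and *Chrdl1* in 7.12% ± 0.517 and 4.73% ± 0.652. For both genes the 3 Wt and 6 mutant libraries did not overlap (exact p = 0.0119, two-sided permutation of the library labels, the smallest p that 84 splits allow). *Fst* (1.35% and 0.504%, exact p = 0.0238) and *Smoc2* (2.36% and 1.27%, exact p = 0.0357) followed, and the share of *Nog* was 1.20% in Wt and 1.55% in mutants (exact p = 0.667). Adjusted over the 9 genes tested, the 4 smallest values lay between 0.0536 and 0.0804, so none passed 0.05. The test was run on these 9 genes only, so no share over all genes stands beside it. Unthinned shares were 73.2% and 58.4% for *Twsg1* and 20.3% and 12.5% for *Chrdl1*. Thinning left out 54 to 920 cells of all lineages per library.

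The level summed over the 9 genes was 82.0, 73.9 and 86.0 CPM in the mesenchyme of Wt replicates 1 to 3, 58.6, 63.4 and 57.7 CPM in E1C8 and 57.8, 55.6 and 65.3 CPM in E1C5. The mutants thus held fewer transcripts of these genes in all, with means of 80.7 ± 6.16 CPM in Wt, 59.9 ± 3.08 CPM in E1C8 and 59.6 ± 5.06 CPM in E1C5 (SD, n = 3). *Twsg1* made up about as much of the sum as the other 8 genes, which came to 35.9 to 44.4 CPM in Wt and 24.1 to 31.1 CPM in the mutants. Sums are given as a description, since the genes were chosen with results of these data known. Such sums do not separate fewer cells with a transcript from fewer transcripts per cell, and these parts were not tested apart.

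Among the genes tested in the mesenchymal gates, *Smoc1* was called most often in both mutants together. Of 90 pairs of a gene and a gate, 63 passed the filter on low counts (the 10 pairs of *Chrdl1* were left out with the X genes), and 8 were called in both mutants together against 1.42% of all genes tested in the gates. All 8 fell (0.941% of genes) and 0 rose (0.477%), and 31 of 63 had an unadjusted p under 0.05 (16.1% of all genes). DESeq2 called 13, 0 of them rising, without a share of all genes to set beside them. *Smoc1* accounted for 3 of the 8 calls, *Twsg1* and *Fst* for 2 each and *Smoc2* for 1. In E1C8 alone 12 pairs were called (5.5% of all genes) and in E1C5 alone 5 (0.96%), again all falling. *Chrdl1*, not tested in the gates, was lower in every mutant library than in any Wt library in the dorsoventral gate (4.06 to 5.58 against 9.43 to 11.2 CPM). The same held in the zeugopod level (3.11 to 4.54 against 6.07 to 6.22 CPM), chondrogenic core (6.51 to 10.3 against 13.0 to 14.3 CPM) and connective tissue gates (4.59 to 7.65 against 7.74 to 10.3 CPM). In the other gates the mutants overlapped Wt. *Nog* in E1C8 lay above all Wt libraries in the zeugopod level gate (1.48 to 2.67 against 0.937 to 1.45 CPM), without a call. The connective tissue (1.05 to 2.75 against 0.369 to 0.807) and distal autopod gates (1.67 to 5.00 against 0 to 1.04 CPM) showed the same. *Chrd* in E1C8 did so in the posterior gate (0.935 to 1.19 against 0.262 to 0.475 CPM) and *Smoc2* in the proximal gate (1.66 to 1.82 against 1.17 to 1.65 CPM). These values rest on 0 to 75 UMIs per library, and E1C5 overlapped Wt in each. The cases are not a full list. The share of all genes with such an order of libraries in a gate is not given here, so they have no background.

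In the zeugopod level gate (*Hoxa11*, *Hoxd11*), *Smoc1* had 26.1, 17.3 and 22.5 CPM in Wt, 7.11, 7.80 and 7.18 CPM in E1C8 and 9.54, 10.4 and 11.6 CPM in E1C5. In the dorsoventral gate (*Osr2*, *Nrp2*), it had 42.5, 33.8 and 34.0 CPM in Wt, 17.8, 15.5 and 18.2 CPM in E1C8 and 23.0, 20.6 and 18.9 CPM in E1C5. Every mutant library lay below every Wt library in both gates, those of E1C5 included. The log2 fold changes were -1.29 (SE 0.11, adjusted p = 0.000156) and -0.94 (SE 0.11, adjusted p = 0.000993), and in E1C5 alone -1.03 (adjusted p = 0.00352) and -0.77 (adjusted p = 0.00714). The calls for both mutants together held in all 18 alternatives, the covariate for sex included (-1.28 and -0.86, adjusted p = 0.0137 and 0.0404).

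In 7 gates *Smoc1* did not pass the test for both mutants together. Among these were 0.14 (SE 0.20, adjusted p = 0.782) in the peripheral, -0.08 (SE 0.22, adjusted p = 0.909) in the proximal and -0.03 (SE 0.32, adjusted p = 0.985) in the anterior proximal gate, domains where its Wt level was 4.50, 4.96 and 5.47 CPM. Whether the gates differ from each other was not tested. *Grem1* fell by 1.47 on the log2 scale in the zeugopod level gate, by 1.02 in the dorsoventral and by 1.20 in the connective tissue gate, where its Wt means were 79.4, 86.4 and 56.8 CPM. In the distal autopod gate, whose Wt mean of 55.6 ± 14.4 CPM (SD, n = 3) lay within the spread of the connective tissue gate, *Grem1* fell by 1.81 on the log2 scale (SE 0.23, adjusted p = 0.00183), while *Smoc1* was at -0.96 (SE 0.26, adjusted p = 0.0889) and was not called. The third call of *Smoc1* was in the connective tissue gate (-0.58, SE 0.12, adjusted p = 0.0296), with 46.0, 34.6 and 28.6 CPM in Wt, 22.6, 19.5 and 17.0 CPM in E1C8 and 29.3, 31.3 and 33.5 CPM in E1C5, where E1C5 overlapped Wt. It ended in 10 of 18 alternatives, among them the removal of any library other than Wt replicate 3 and E1C5 replicate 3, and without Wt replicate 1 it was -0.39 (adjusted p = 0.125). The cells themselves were fewer in the dorsoventral gate, at 17.4% to 22.4% of mesenchyme in Wt, 8.81% to 11.9% in E1C8 and 11.3% to 12.7% in E1C5, while the zeugopod level gate held 21.8% to 28.9%, 20.4% to 25.8% and 24.2% to 27.6%.

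**Figure D4:**
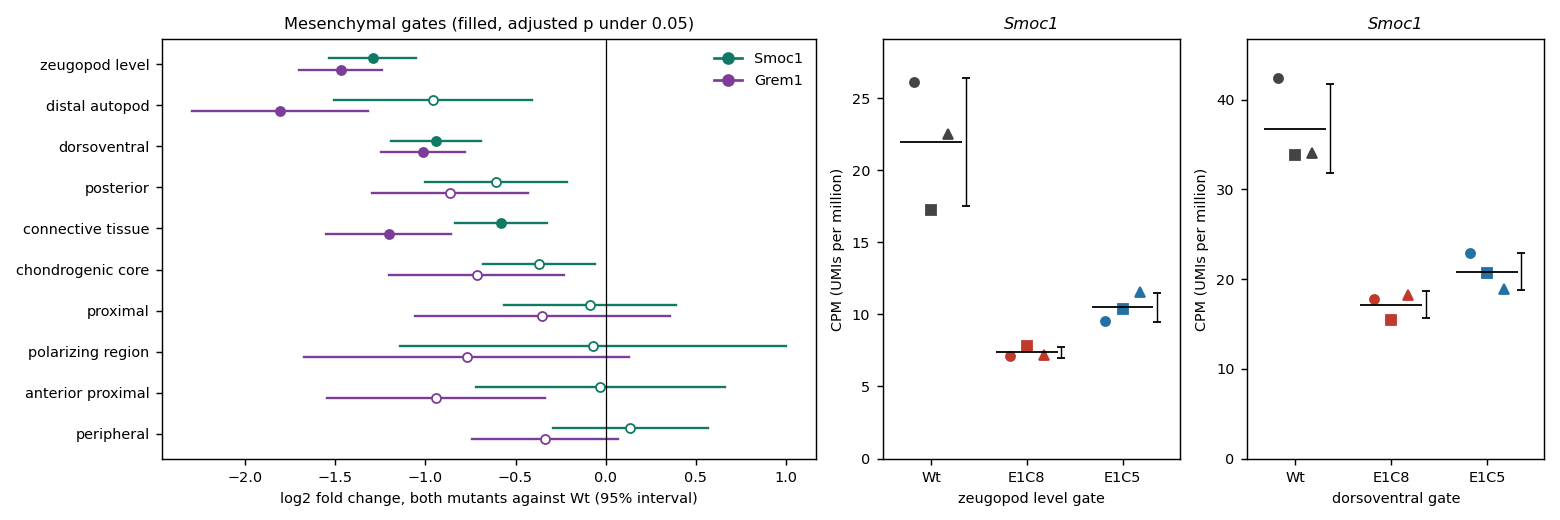
Left, log2 fold change of *Smoc1* and *Grem1* in both mutants against Wt in each mesenchymal gate, with 95% intervals and filled points where the adjusted p is under 0.05. Right, CPM of *Smoc1* per library (line, mean; bar, SD) in the zeugopod level and dorsoventral gates, where the highest mutant libraries (11.6 and 23.0 CPM) lie below the lowest Wt libraries (17.3 and 33.8 CPM).

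*Fst* fell in the chondrogenic core gate, where its mesenchymal level is highest, and in the dorsoventral gate. In the core it had 2.87, 2.11 and 7.67 CPM in Wt, 0.283, 2.58 and 1.32 CPM in E1C8 and 0.236, 0.583 and 0.424 CPM in E1C5, with -2.20 for both mutants (SE 0.44, adjusted p = 0.0303). The E1C5 libraries lay below all Wt libraries and E1C8 replicate 2 between them. Without Wt replicate 3 the value was -1.57 (adjusted p = 0.0761), and it also lost the call without E1C5 replicate 1 or 3 and without E1C8 replicate 1 or 3. In the dorsoventral gate *Fst* (-1.94, adjusted p = 0.0363) and *Smoc2* (-2.32, adjusted p = 0.0239) rest on 1 to 52 and 0 to 93 UMIs per library. There *Smoc2* had 0.851, 1.95 and 4.42 CPM in Wt and at most 0.665 CPM in the mutants. Without Wt replicate 3 these calls ended (-1.39 and -1.77, adjusted p = 0.0717 and 0.0591), as they did without Wt replicate 2, E1C8 replicate 2 or E1C8 replicate 3, and for *Fst* also without E1C8 replicate 1 or E1C5 replicate 1 or 2.

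*Twsg1* gave nearly the same value in every gate, between -0.42 and -0.23, with calls in the zeugopod level gate (-0.35, adjusted p = 0.0285) and the connective tissue gate (-0.34, adjusted p = 0.0463). In the former it had 41.9, 36.0 and 43.3 CPM in Wt and 28.8 to 33.9 CPM in the mutants, which do not overlap. These calls ended in 10 and 11 of 18 alternatives. Among them were the removals of any library other than E1C5 replicate 3.

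Outside mesenchyme, 12 of 45 pairs of a gene and a lineage were tested. The others had low counts or, for *Chrdl1*, were left out with the X genes. Of the 12 pairs, 2 were called in both mutants together against 0.169% of all genes tested. Both were in muscle-like cells, 2 fell (0.127% of genes) and 0 rose (0.0422%), and 5 of 12 had an unadjusted p under 0.05 (6.08% of all genes). DESeq2 also called 2, again without a share of all genes beside them. E1C8 replicate 1 with its 18 muscle-like cells did not enter. In muscle-like cells *Chrdl1*, which was not tested, had 4.59, 3.07 and 2.07 CPM in Wt and 3.10 and 1.83 CPM in E1C8. In E1C5 it had 7.62, 5.12 and 8.58 CPM, above all Wt libraries. Its E1C5 libraries also lay above Wt in endothelium (1.69 to 2.74 against 1.02 and 1.59 CPM). They lay below Wt in ectoderm (0 and 0.771 against 0.893 and 1.82 CPM). *Fst* had 21.9, 17.4 and 47.6 CPM in Wt replicates 1 to 3, 8.99 and 8.91 CPM in E1C8 replicates 2 and 3 and 4.12, 3.13 and 6.11 CPM in E1C5. All 5 mutant libraries lay below all Wt libraries, and E1C5 below E1C8. The fall was 4.04-fold (log2 -2.01, SE 0.28, adjusted p = 0.00672), with -2.46 in E1C5 (SE 0.33, adjusted p = 0.00348) and -1.56 in E1C8 (adjusted p = 0.0527). Wt replicate 3 held 51 muscle-like cells and the highest value. The call held without it and in 16 of 17 alternatives, and ended with sex as a covariate (-2.16, adjusted p = 0.16).

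*Smoc1* had 22.6, 15.9 and 12.8 CPM in the muscle-like cells of Wt, 10.1 and 7.42 CPM in E1C8 and 9.20, 9.68 and 11.9 CPM in E1C5. All mutant libraries again lay below all Wt libraries (log2 -0.87, SE 0.17, adjusted p = 0.0338). The call ended in 9 of 17 alternatives, among them the removal of Wt replicate 1 (-0.66, adjusted p = 0.161) or 2, E1C5 replicate 1 or 2, and E1C8 replicate 2 or 3. Mesenchymal transcripts were present in these cells. *Twist1* was found in 36.7% to 47.3% of thinned muscle-like cells per library, beyond its 7.39% to 23.2% of erythroid cells. *Prrx1* was found in 23.5% to 53.0% against 10.6% to 27.7%, ranges that overlap. The part of such transcripts in the level of *Smoc1* was not tested.

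*Nog* fell in the muscle-like cells of E1C5 (-1.87, SE 0.35, adjusted p = 0.0188). It had 4.69, 3.66 and 8.62 CPM in Wt, 4.34 and 4.89 CPM in E1C8 and 1.05, 1.71 and 1.51 CPM in E1C5. E1C5 lay below all other libraries, while E1C8 lay within the range of Wt. Muscle-like cells of E1C5 had 2 of 5 genes called (1.34% of all genes) and those of E1C8 1 of 5 (1.1%), and *Grem1* was at 0.41 (adjusted p = 0.54) in both mutants together. In ectoderm, *Sostdc1* gave -0.28 (95% interval -0.77 to 0.22), *Smoc2* -0.42 (-1.17 to 0.34), *Smoc1* 0.31 (-0.72 to 1.34) and *Twsg1* 0.04 (-0.34 to 0.42) in both mutants together, with adjusted p of 0.995 for each. Changes beyond these bounds lie outside the intervals of the 6 libraries, which held 54 to 106 ectodermal cells. In E1C5 alone *Sostdc1* was at -0.66 (95% interval -1.26 to -0.06) in ectoderm and at -0.96 (-1.67 to -0.25) in ectoderm outside the ridge, and neither passed the adjusted test (adjusted p = 1.00 and 0.921).

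**Figure D5:**
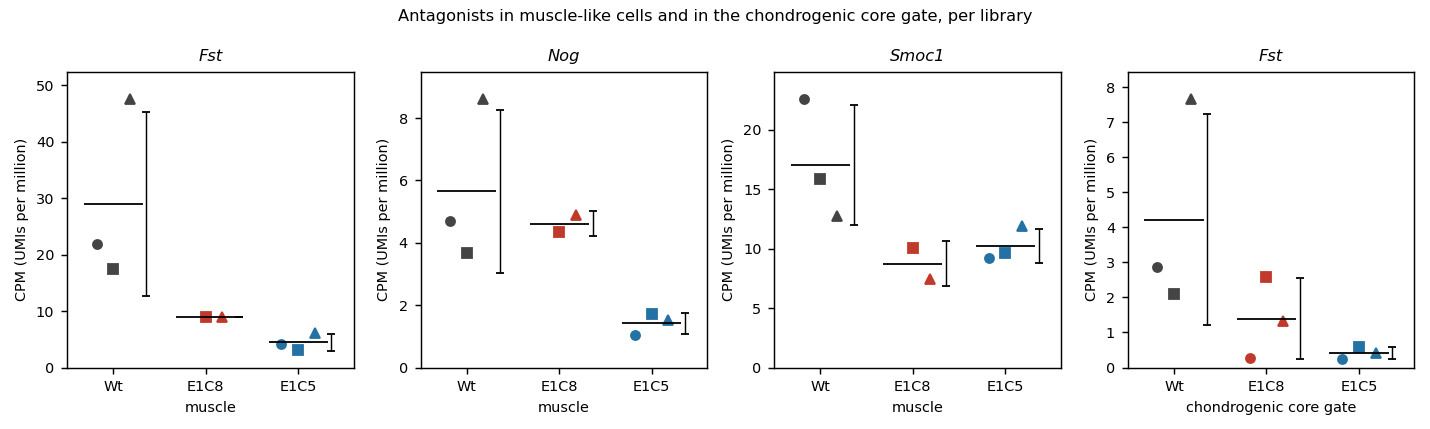
CPM per library (line, mean; bar, SD) of antagonists in muscle-like cells and in the chondrogenic core gate. E1C8 replicate 1 is missing from the muscle panels for want of cells; *Fst* in muscle-like cells runs from 17.4 to 47.6 CPM in Wt and from 3.13 to 8.99 CPM in the mutants.

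The other genes of the BMP pathway gave the setting in mesenchyme. Of 51 listed ligands, receptors, SMADs, targets and further extracellular modulators, 45 were tested, 4 were called in both mutants together (2.2% of all genes), 15 had an unadjusted p under 0.05 (19.5% of all genes) and the median log2 fold change was -0.07. Among 6 listed targets, *Msx1* (0.45, adjusted p = 0.0406) and *Id3* (0.43, adjusted p = 0.0447) rose. *Bambi*, a decoy receptor induced by BMPs, rose by 0.39 (adjusted p = 0.0175) and *Rgmb*, a BMP co-receptor, fell by 0.43 on the log2 scale (adjusted p = 0.0296). *Id3* had means of 224 CPM in Wt, 382 CPM in E1C8 and 232 CPM in E1C5, and *Bambi* 40.3, 65.3 and 41.8 CPM, so that the E1C5 means lay close to Wt. None of 10 ligands, 6 SMADs or 14 further extracellular modulators was called. The pathway calls ended without the 2 smallest libraries and with sex as a covariate, where 0 were left.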

How the data were processed

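Whole-cell droplet libraries of dissociated mouse forelimb buds (10x Genomics 3′ chemistry) were made from 3 genotypes with 3 libraries each. The authors deposited UMI counts per gene and barcode, not normalized. The submitters' processing notes name Cell Ranger 6.0.1, the mm10 build and Seurat 4.3.0.1. Gene positions were read from the GENCODE annotation of the same build. No column belonged to other samples.

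The study's filters on cells were applied (over 2500 genes, under 200000 UMIs, mitochondrial share under 10%), and barcodes resembling simulated doublets were removed at a rate of 0.8% per 1000 barcodes. Each cell was thinned to 10000 UMIs for gating. Mesenchyme needed 6 UMIs over 9 markers with no other lineage called, another lineage needed 3 different markers of its list. Gate thresholds were set after the distributions of marker sums had been seen. The 9 genes and all lists were chosen with earlier results of these data known.

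Unthinned UMIs were summed per library and group. They were tested with edgeR 4.0.16 (R 4.3.3) by quasi-likelihood F tests after filterByExpr and TMM scaling, with Benjamini-Hochberg adjustment over all genes tested, X and Y genes left out as in the study, and a threshold of 0.05. *Chrdl1* was fitted with those genes kept. Lineages and gates were set against mesenchyme with the library as a block. Libraries with fewer than 20 cells of a group were left out. DESeq2 1.42.0 served as an alternative, with other scaling, filters, gating depth, doublet handling, sex as a covariate and each library left out. Shares of cells were compared with scipy 1.17.1. On simulated counts, 68% of 200 genes changed by 1 on the log2 scale were recovered in mesenchyme (16186 genes). The UMI total of the group bounds the precision of each level, and intervals cover the spread between libraries.

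Named genes were the 9 genes and *Grem1*, pathway genes past the threshold in both mutants together, and the 3 genes most like each member of at least 5 CPM in a group.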

Additional observations from a re-analysis of the deposited data

Results flagged for a closer look

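The effects of the deletions differed from each other, by the test of the difference itself (edgeR's quasi-likelihood test with Benjamini-Hochberg adjustment), for *Sostdc1* and for *Smoc1* in mesenchyme. *Sostdc1* was higher in E1C8 than in E1C5 by 1.37 on the log2 scale (SE 0.25, adjusted p = 0.0108), and all 3 E1C8 libraries lay above all 3 E1C5 libraries. For *Smoc1* the difference was -0.79 (SE 0.14, adjusted p = 0.0103), with all 3 E1C8 libraries below all 3 E1C5 libraries. Among the male libraries, 1 of each deletion, the values were 1.71 (adjusted p = 0.450) and -0.81 (adjusted p = 0.532).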

How the results depend on the processing

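The direction of change hardly depended on the processing, and the side of the threshold often did. Counts under the alternatives are mostly given without the share of all genes called there. Of 8 genes in mesenchyme, the calls in both mutants together (1) became 4 with DESeq2, 4 without a filter on low counts, 2 without removal of doublets, 2 with gating at 5000 UMIs and 0 with the replicate block, with sex as a covariate, without the 2 smallest libraries (Wt replicate 3 and E1C8 replicate 1) or in male libraries, the last pair chosen after seeing the data. Leaving out a library gave 0 to 2. In E1C8 (2 calls), sex as a covariate left 1, male libraries 0 and the removal of a library 1 to 2. In E1C5 (1 call), DESeq2 gave 4, no filter 3, doublets kept, gating at 5000 UMIs and more than 1500 genes per cell 2 each, the removal of a library 0 to 3, and the block, sex, mixed-lineage cells kept, the 2 smallest libraries left out or male libraries 0. Between the mutants (2 calls), DESeq2 gave 4, male libraries 0 and the removal of a library 1 to 3. In the gates (8 calls) the values were 13 with DESeq2, 17 without the filter, 4 with the block, 2 with sex and 2 to 7 with a library left out. In other lineages (2 calls) they were 1 with the block, 0 with sex (4 of 5 lineages could be fitted), 1 with gating at 5000 UMIs and 1 to 2 with a library left out. The 4 pathway calls became 0 with the block, with sex, without the 2 smallest libraries and in male libraries, and 1 to 6 with a library left out. *Chrdl1* lost its call with the block (-0.58), with sex (-0.63), without the 2 smallest libraries (-0.60), in male libraries (-0.64) and with most single libraries left out (-0.63 to -0.52). The 4 genes past an unadjusted exact p of 0.05 by share of cells became 2 to 4 with a library left out, with 2 reached without Wt replicate 3. That test was not run over all genes, so this count has no background. *Grem1* in both mutants lost its call in 3 of 20 alternatives, between -1.25 and -0.95. The cause was not tested. With sex as a covariate 2 of 16186 genes were called, and sex is partly confounded with genotype here. The comparison of male libraries uses only a subset of the libraries.

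Values near 0 turned sign in 4 cases, namely *Chrd* in E1C8 (-0.029 without Wt replicate 1, up to 0.35 without another library), *Smoc1* in E1C5 (0.0043 without Wt replicate 1, down to -0.21 without another), and in male libraries *Nog* in E1C5 (0.078) and *Chrdl1* between the mutants (0.16). No other value of the 9 genes or *Grem1* did so in the alternatives run.

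Libraries of the same replicate number did not deviate together: 9 same-number correlations ran from -0.32 to 0.14 (1 over 0.1), and 1 of 9 libraries correlated best with its own number, so the numbers were not taken as pairs.

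The sparse genes *Bmper*, *Chrd*, *Fst*, *Nog* and *Smoc2* rest on 5 to 608 UMIs per library in mesenchyme. Of these, edgeR called *Fst* in E1C5 against Wt. The others were not called there against Wt, and changes within their intervals are not excluded. Whether depth or the spread between libraries limits them was not tested.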
